A study of Rattus norvegicus with 176 samples.

Results

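This section describes 3 aldehyde dehydrogenase genes, Aldh1a1, Aldh2 and Aldh3a2, in the livers of F344 rats given clofibric acid (CA), DEN or both. The members were the listed genes by the array's annotation, 3 of the 10411 genes that 15922 probe sets named. Each was read by 1 probe set, so no choice between probe sets was needed. Total RNA of 176 liver sections had been hybridised to 1 array each, and 148 of these sections carried no section tag.

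Aldehyde dehydrogenases oxidise reactive aldehydes to carboxylic acids with NAD or NADP as the electron acceptor. ALDH1A1 is the cytosolic enzyme that turns retinaldehyde into retinoic acid and also clears lipid peroxidation aldehydes. ALDH2 is the mitochondrial enzyme that clears most of the acetaldehyde formed from ethanol, and ALDH3A2 is the fatty aldehyde dehydrogenase of the endoplasmic reticulum and peroxisomes. Clofibric acid belongs to the fibrates, lipid-lowering drugs that act through the nuclear receptor PPARalpha, and Aldh3a2 is known as a target gene of that receptor. DEN is not spelled out in the labels, and in liver studies usually means diethylnitrosamine, a carcinogen that hepatocytes activate.

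F344 is an inbred rat strain. Control rats, CA rats, DEN rats and rats with both agents (DEN-CA) were sampled at the labels 5j, 1m, 3m, 9m and 12m, with 5 rats in each group. Controls and DEN rats were also sampled at -8 (5 rats each), and controls and CA rats at 18m (5 each). A further 6 CA rats were labelled 18 with no unit. Groups labelled rev comprised 4 CA and 3 control rats at 18m, and 4 control, 6 DEN and 5 DEN-CA rats at 12. The sample titles give 5000 ppm CA for every sample, controls included, so groups were taken from the source label of each sample, and from the title where that label was incomplete. The controls of -8 are labelled CtrlDEN, and all other controls Ctrl. Here -8, which has no unit, was taken to come before 5j, though the labels do not state this order. The labels spell out neither j nor rev, and give no age, sex or DEN dose. They name each rat by a number, so the untagged sections of a group are of separate rats. Of the other sections, 23 carried a tag starting with TU (such as TUM, tuga or tumi) and 5 the tag PERI, which the labels do not explain.

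Deposited array medians ran from 25.35 to 187.2. Each array was therefore multiplied to a common median of 99.35, and the value after that step is called the scaled signal. The labelled tissue was borne out, with a summed scaled signal of 9 hepatocyte markers between 60700 and 242000 in the untagged sections. The summed signal of 8 pancreatic acinar markers was between 169 and 494 there. A sum of 8 lymphocyte markers was 12900 in rat 4043 (control, 18m rev), 5680 in rat 4111 (DEN-CA, 12 rev) and 2870 in rat 4040 (control, 18m), against 332 to 1540 in the other 145 untagged sections. The acinar sum reached 23100 in a TU section of rat 4111 and at most 539 in the TU sections of other rats. No result of the 3 genes changed its side of the threshold without these 3 rats, and their values without these rats are given beside the main comparisons that use them. In whole tissue, fewer cells of a type and less RNA per cell cannot be told apart. Titles of 46 untagged arrays have the letter B after the rat's number, which is not explained and is called the B suffix here. A few titles also carry bis there, which is not explained either and was not used in any comparison.

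Upstream sequences show what lies before 1 start per gene, as the promoter table used here gives it. RefSeq's promoter table on the assembly GRCr8 held 2 of the 3 members, Aldh1a1 and Aldh3a2. The 250 bases before each start are given 5′ to 3′ in lower case, with matches to CCAAT in capitals. The Aldh1a1 window is chr1:227537370-227537619 on the plus strand, and the Aldh3a2 window is chr10:46448336-46448585 on the minus strand.
Aldh1a1: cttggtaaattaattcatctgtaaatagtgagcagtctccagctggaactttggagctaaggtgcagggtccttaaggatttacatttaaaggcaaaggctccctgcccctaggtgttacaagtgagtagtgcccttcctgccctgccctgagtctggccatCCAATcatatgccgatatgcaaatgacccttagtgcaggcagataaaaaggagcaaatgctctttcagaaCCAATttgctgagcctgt
Aldh3a2: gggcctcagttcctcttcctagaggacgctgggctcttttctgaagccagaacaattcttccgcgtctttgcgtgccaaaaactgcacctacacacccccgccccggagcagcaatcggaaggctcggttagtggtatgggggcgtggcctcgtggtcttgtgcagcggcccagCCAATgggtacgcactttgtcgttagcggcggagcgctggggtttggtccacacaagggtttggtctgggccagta
Aldh1a1 held CCAAT on the plus strand at -88 and -18 from its start, and Aldh3a2 at -76. CCAAT was found on either strand in 34% of 33469 windows of the same length. The nuclear receptor hexamer AGGTCA (14.1% of windows), its direct repeat with 1 base between, AGGTCANAGGTCA (0.0508%), and TATAAA (12.9%) were also searched on both strands, and none of the 3 was in either window. In the same assembly Aldh1a1 spans 227426939 to 227579497 on chromosome 1, Aldh2 40610244 to 40643220 on chromosome 12 and Aldh3a2 46427789 to 46448449 on chromosome 10. The Aldh1a1 window thus lies inside that gene's span, and the Aldh3a2 window overlaps the end of its gene's span. Both windows therefore precede a start inside the gene and not its outermost start. Which start is used in these livers was not tested.

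The 3 genes differed in how far their signals ranged. Over all sections the scaled signal of Aldh1a1 ran from 150 to 5670 with a median of 2000, that of Aldh2 from 2210 to 8500 with a median of 5310, and that of Aldh3a2 from 781 to 5910 with a median of 3400. Across the 30 untagged groups the highest group mean was 11.1 times the lowest for Aldh1a1, 1.36 times for Aldh2 and 1.87 times for Aldh3a2. Within groups the SD of log2 values had a median of 0.366 for Aldh1a1, 0.201 for Aldh2 and 0.204 for Aldh3a2. In the order of group means, all 29 pairs of neighbours overlapped in their rats' values for each gene.

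**Figure D1:**
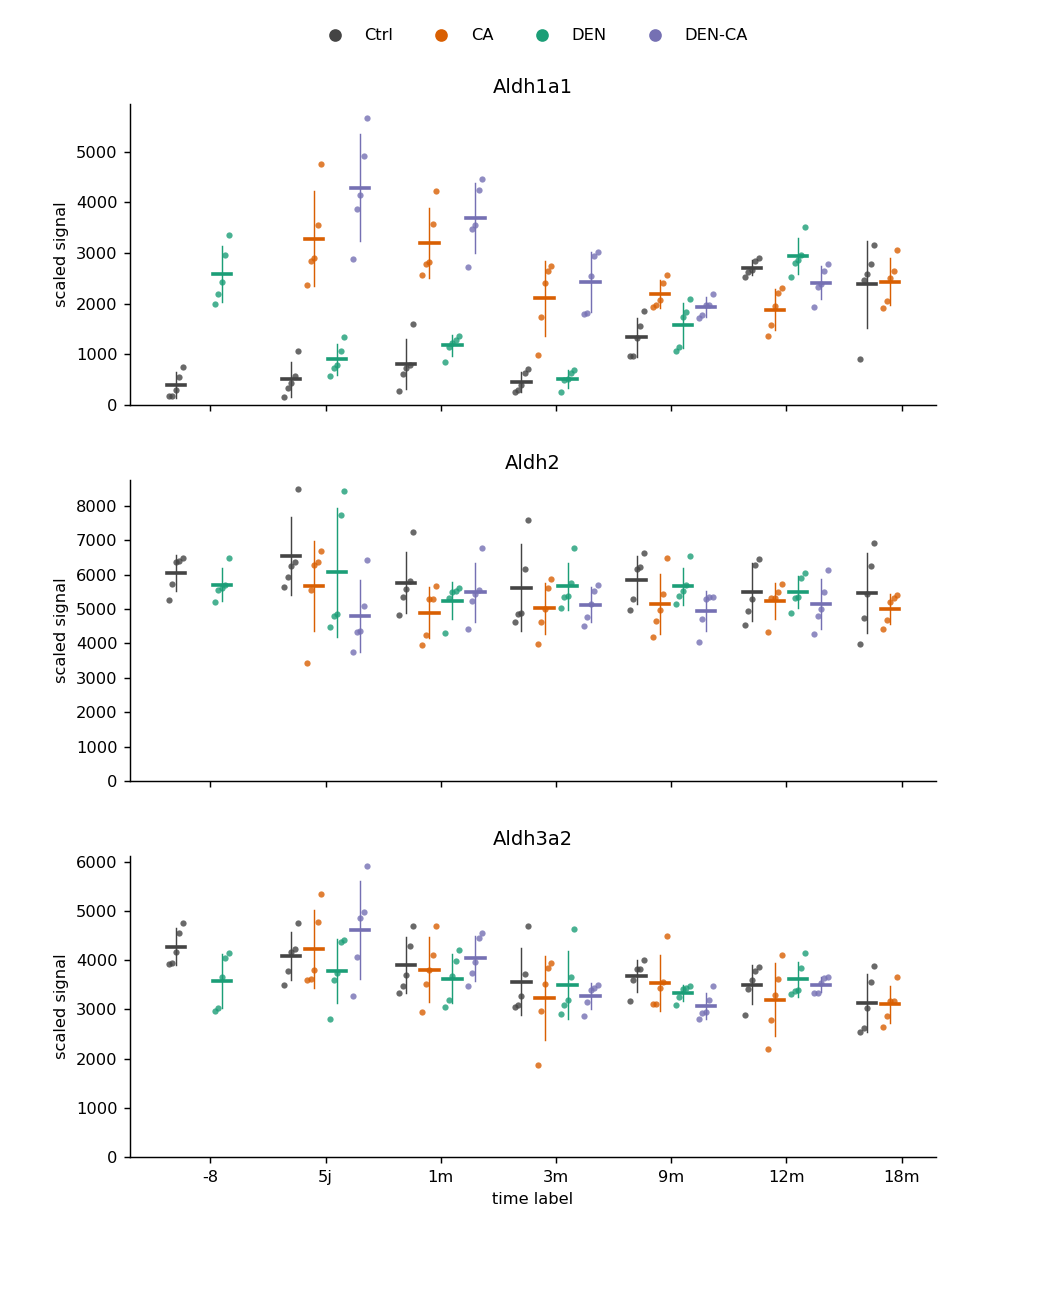
Scaled signal of Aldh1a1, Aldh2 and Aldh3a2 (vertical axis, arbitrary units, from 0) by time label (horizontal axis) in control, CA, DEN and DEN-CA rats; each point is the untagged section of 1 rat, thick bars are group means and thin lines 1 SD. The controls' Aldh1a1 mean is 507 at 5j and 2714 at 12m, while the CA rats' mean is 3287 at 5j and 1883 at 12m.

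The first question was whether CA changed the members' RNA. Aldh1a1 was higher in CA rats than in controls at 5j, 1m and 3m, and did not pass the test at 9m, 12m or 18m. At 5j the controls were at 150, 329, 430, 563 and 1060 and the CA rats at 2360, 2840, 2910, 3560 and 4770. At 1m the controls were at 280, 615, 735, 796 and 1600 and the CA rats at 2570, 2780, 2830, 3580 and 4220. At 3m the controls were at 255, 284, 400, 632 and 702 and the CA rats at 984, 1740, 2400, 2640 and 2750. The groups did not overlap at any of the 3 times, and the controls themselves spread several-fold.

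On the log2 scale, after 25 was added to each scaled signal, the Aldh1a1 difference was 2.85 ± 0.29 (SE) at 5j (limma, Benjamini-Hochberg adjusted p = 5.8e-14), or 7.18-fold. It was 2.13 ± 0.29 at 1m (adjusted p = 7.8e-09) and 2.17 ± 0.29 at 3m (adjusted p = 4.9e-09). Of the 12393 probe sets tested, 11.2% passed an adjusted p of 0.05 at 5j, 14.4% at 1m and 14.2% at 3m. Groups of CA and control rats did not overlap for 6.72%, 8.43% and 5.25% of probe sets at these times. Among arrays with the B suffix, which at 1m left 1 CA and 2 control rats, the 1m difference was 1.46 with an adjusted p of 0.3, and among those without it 2.5 (adjusted p = 4.2e-09). Without scaling of the arrays the 3m difference was 1.22 and still passed (adjusted p = 0.0063). The SD of the controls' log2 values was 0.968 at 5j and 0.866 at 1m, above the median of 0.366 over all groups. The SE of 0.29 comes from a spread shared by all groups and understates that of these controls. Over 14 other settings the 5j difference ran from 2.43 to 2.96.

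At 9m the Aldh1a1 signal of the controls was 972, 972, 1320, 1560 and 1850, and that of the CA rats 1930, 1970, 2080, 2410 and 2570. The CA rats were still all above the controls, at a difference of 0.74 ± 0.29 (adjusted p = 0.12). At 12m the order was turned. The controls were at 2530, 2630, 2660, 2840 and 2910 and the CA rats at 1360, 1580, 1960, 2210 and 2300, a difference of -0.55 ± 0.29 (adjusted p = 0.25). The CA rat at 1580 is rat 4137, whose unusual marker sums are given with the TU sections. Of all probe sets 6.78% passed at 9m and 11.7% at 12m, and groups did not overlap for 7.42% and 8.41%. The fit shares 1 estimate of spread over groups, while the SD of the controls' log2 Aldh1a1 values was 0.968 at 5j and 0.0822 at 12m. With only the 2 groups compared in the fit, the adjusted p was 0.015 at 9m and 0.036 at 12m, and with array weights it was 0.035 at 9m.

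At 18m the Aldh1a1 controls were at 907, 2470, 2580, 2790 and 3160 and the CA rats at 1920, 2050, 2510, 2640 and 3070, so the groups overlapped. The difference was 0.13 ± 0.29 (adjusted p = 0.89, 6.79% of probe sets passed). The control at 907 is rat 4040, whose lymphocyte marker sum is given above. Without rats 4040, 4043 and 4111 the difference was -0.19 (adjusted p = 0.84). The 6 CA rats labelled 18 ran from 1820 to 2710 with a mean of 2277 ± 341 (SD), 0.04 ± 0.28 from the 18m controls (adjusted p = 0.95, 23.2% passed), or -0.28 without those 3 rats (adjusted p = 0.55).

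Averaged over the 6 times, the Aldh1a1 difference between CA and control rats was 1.24 ± 0.12 (adjusted p = 7.5e-17), and 1.19 without the 3 rats (adjusted p = 3.3e-16). That mean does not describe any late time. The CA effect at 9m was lower than that at 5j by a log2 difference of -2.10 ± 0.42 (adjusted p = 0.0012), at 12m by -3.39 ± 0.42 (adjusted p = 2e-09) and at 18m by -2.72 ± 0.42 (adjusted p = 2.9e-06), or -3.03 without the 3 rats (adjusted p = 9.5e-08). At 1m and 3m it was -0.72 and -0.68 from that at 5j (adjusted p = 1 and 0.67). These changes of the CA effect passed for 0.734%, 2.07% and 0.726% of probe sets at 9m, 12m and 18m, and for 0.0646% and 0.21% at 1m and 3m. At 9m the change did not pass among arrays with the B suffix (-2.28, adjusted p = 0.52) or without it (-2.01, adjusted p = 0.08), nor without scaling of the arrays (-1.52, adjusted p = 0.31).

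Markers of other cells and of liver zones also differed between CA and control rats. In the mean CA effect, where 40.2% of all probe sets passed, 6 of 6 tested Kupffer cell and macrophage markers, 4 of 8 pericentral, 6 of 8 periportal, 3 of 5 endothelial, 4 of 9 stellate cell and fibroblast, 2 of 8 lymphocyte and 1 of 9 hepatocyte markers were lower. Of 3 cholangiocyte markers tested 1 was higher, and none of the other markers was. At 5j the pericentral sum was 25600 to 31500 in controls and 16000 to 24500 in CA rats, and the Kupffer sum had medians of 5280 and 3970. The cholangiocyte sum was 181 to 361 in controls and 385 to 421 in CA rats at 5j, and 234 to 433 and 509 to 632 at 18m. The part of these markers in the results on the members was not tested.

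**Figure D2:**
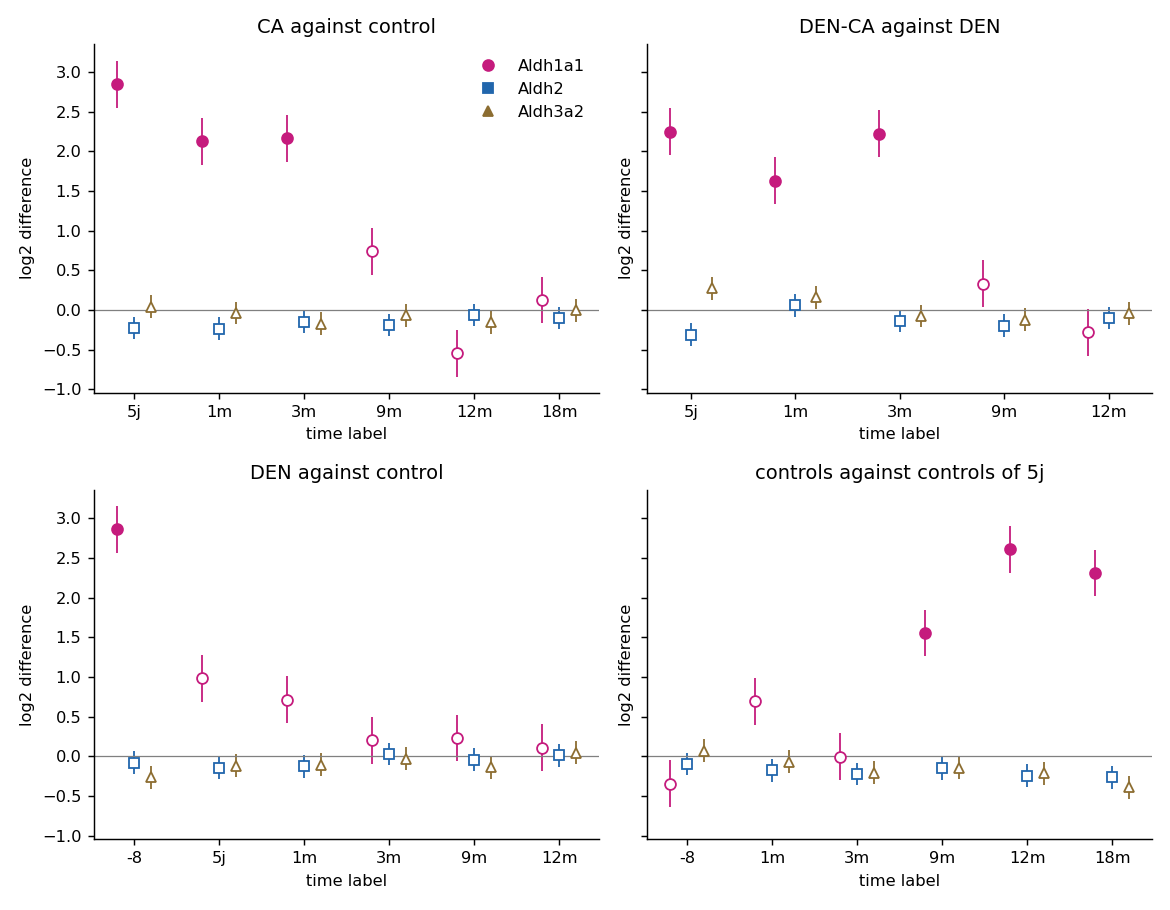
Log2 differences (vertical axis, with 1 SE as bars) of Aldh1a1, Aldh2 and Aldh3a2 by time label (horizontal axis) for CA against control, DEN-CA against DEN, DEN against control, and controls of each time against controls of 5j; filled symbols have an adjusted p under 0.05 and open symbols do not. Filled Aldh1a1 symbols stand at 5j, 1m and 3m for CA and DEN-CA, at -8 for DEN, and at 9m, 12m and 18m for controls.

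Aldh2 was slightly lower in CA rats over all times together, by a log2 difference of -0.16 ± 0.06 (adjusted p = 0.018). At 5j the controls were at 5650, 5930, 6250, 6360 and 8500 and the CA rats at 3440, 5550, 6290, 6360 and 6690. At 18m the controls were at 3980, 4750, 5450, 6240 and 6920 and the CA rats at 4430, 4670, 5200, 5320 and 5410. Groups overlapped at all 6 times, the differences ran from -0.24 at 1m to -0.06 at 12m, and no single time passed. In the mean over the 6 times 40.2% of probe sets passed. The Aldh2 call was lost among arrays without the B suffix (-0.19, adjusted p = 0.054) and among arrays with a deposited median of 50 or more (-0.14, adjusted p = 0.061), and without scaling the mean was -0.39 (adjusted p = 0.0021). Without the 3 rats that stand apart the mean was -0.18 (adjusted p = 0.0055). Under quantile normalisation Aldh2 passed at 5j (-0.26, adjusted p = 0.02), 1m (-0.23, adjusted p = 0.041) and 3m (-0.30, adjusted p = 0.0054). Without scaling of the arrays Aldh2 was at -1.11 at 3m and passed (adjusted p = 0.00048), where the median of all probe sets was at -0.71.

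Aldh3a2 did not pass the test between CA and control rats at any time in the fit to scaled arrays. Without scaling it was at -1.12 at 3m and passed (adjusted p = 0.00089), where the median of all probe sets was at -0.71. At 5j the controls were at 3490, 3770, 4160, 4230 and 4760 and the CA rats at 3600, 3620, 3800, 4770 and 5350. The groups overlapped, at a log2 difference of 0.04 ± 0.14 (adjusted p = 0.9, 95% interval -0.25 to 0.32). The mean over the 6 times was -0.07 ± 0.06 (adjusted p = 0.4, 95% interval -0.18 to 0.05), and -0.08 without the 3 rats (adjusted p = 0.29). In this fit the mean passed in the negative direction under quantile normalisation (-0.11, adjusted p = 0.028) and without scaling (-0.29, adjusted p = 0.036). In the CA rats labelled 18, Aldh3a2 was -0.18 from the 18m controls (adjusted p = 0.38) and passed under quantile normalisation (-0.35, adjusted p = 0.0041) and with array weights (-0.30, adjusted p = 0.016). It was -0.24 without the 3 rats (adjusted p = 0.23). Aldh2 was 0.06 from the same controls (adjusted p = 0.82), at -0.25 under quantile normalisation (adjusted p = 0.013) and at -0.05 without the 3 rats (adjusted p = 0.84). The same arrays read Cyp4a1, the fatty acid omega-hydroxylase and PPARalpha target, 1.34 ± 0.08 higher in the same mean (adjusted p = 4.9e-32).

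The next question was how the members changed with time in controls. Aldh1a1 was higher in controls of 9m, 12m and 18m than in those of 5j. The controls of -8 were at 168, 173, 294, 551 and 751, and overlapped those of 5j. The log2 difference from 5j was -0.34 at -8 (adjusted p = 1), 0.69 at 1m (adjusted p = 0.74) and -0.01 at 3m (adjusted p = 0.99), each ± 0.29. It was 1.56 ± 0.29 at 9m (adjusted p = 0.00048), 2.61 ± 0.29 at 12m (adjusted p = 7.7e-11) and 2.31 ± 0.29 at 18m (adjusted p = 2.4e-09). No probe set passed at -8, 1m or 3m (0%), while 1.2% passed at 9m, 6.02% at 12m and 7.22% at 18m. At 12m the 5 controls lay between 2530 and 2910, all above those of 5j, as was the case, in either direction, for 6% of probe sets.

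The Aldh1a1 difference at 18m was 2.63 (adjusted p = 7.4e-11) without rats 4040, 4043 and 4111. The B suffix was on 4 of the 5 controls at 5j, 1 of 5 at 9m and 0 of 5 at 12m and at 18m, so the suffix ran alongside time. At 9m the value was 1.6 with the B suffix, which left 1 rat at 9m. It was 1.52 without the suffix, which left only rat 4008 at 5j. In a fit of the 2 groups alone the 9m value was 1.56 (adjusted p = 0.081), so the call was lost there. Over 14 other settings, this fit included, the 9m value ran from 1.38 to 1.91 and passed in 11. The controls of 5j enter both the CA effect at 5j and every later control difference, and the labels do not give the age at each time.

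Over the same times Aldh2 did not pass in controls, with log2 differences from 5j between -0.27 at 18m (adjusted p = 0.27) and -0.10 at -8 (adjusted p = 1). Aldh3a2 went from a mean of 4080 ± 484 (SD, n = 5) at 5j to 3129 ± 583 at 18m, a log2 difference of -0.39 ± 0.14 (adjusted p = 0.078). Its 18m controls were at 2540, 2630, 3020, 3560 and 3890 and overlapped those of 5j. Without rat 4039 of the 18m controls the Aldh3a2 difference was -0.48 and passed (adjusted p = 0.036). Without rats 4040, 4043 and 4111 it was -0.34 (adjusted p = 0.18), and that of Aldh2 -0.16 (adjusted p = 0.63). The pericentral marker sum had a median of 27500 in controls at 5j and 19600 at 18m, and 0 of 8 of these markers passed. Among all probe sets 7.22% passed between these controls. Across the other marker lists 1 of 9 hepatocyte, 1 of 8 periportal and 2 of 9 stellate cell and fibroblast markers were lower in controls at 18m and none was higher. Their part was not tested.

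Under CA the course of Aldh1a1 over time was flat or downward. Against CA rats of 5j, the log2 differences at 1m, 3m, 9m, 12m and 18m were -0.02, -0.69, -0.55, -0.78 and -0.40, and none passed (adjusted p = 0.99, 0.26, 0.32, 0.14 and 0.44). The CA rats of 12m all lay below those of 5j, a separation that 2.63% of probe sets showed. Aldh2 did not pass at any of these times. Aldh3a2 was lower in CA rats at 18m, with 2640, 2870, 3170, 3170 and 3650, than at 5j, by -0.43 ± 0.14 (adjusted p = 0.041). The shares of probe sets that passed were 0.549%, 1.9%, 4.94%, 3.2% and 8.29% at the 5 times. That Aldh3a2 call was lost without any 1 of 6 of the 10 rats (adjusted p = 0.058 to 0.17), and its sign turned without scaling of the arrays (0.37, adjusted p = 0.22). The Aldh3a2 differences at 3m (-0.42, adjusted p = 0.12) and 12m (-0.41, adjusted p = 0.095) passed without rat 4128 and without rat 4139 (adjusted p = 0.047 and 0.037).

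DEN was compared with control rats to ask what it did before and after the time labelled 5j. Aldh1a1 was higher in DEN rats at -8. The 5 controls were at 168, 173, 294, 551 and 751 and the 5 DEN rats at 2000, 2190, 2420, 2960 and 3350. The groups did not overlap, and the log2 difference was 2.86 ± 0.29 (adjusted p = 3.1e-13), or 7.27-fold. Only 0.307% of probe sets passed in this comparison, and groups did not overlap for 2.19%. All 5 controls and 4 of the 5 DEN arrays carried the B suffix, and among these the difference was 2.91 (adjusted p = 6.5e-06). No marker tested on the 9 cell type lists passed at -8, and the pericentral sum was 24100 to 27600 in controls and 22000 to 25800 in DEN rats.

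Later the Aldh1a1 groups overlapped. The log2 difference was 0.98 ± 0.29 at 5j (adjusted p = 0.42), with DEN rats at 567, 722, 793, 1060 and 1350. It was 0.71 at 1m, 0.20 at 3m, 0.23 at 9m and 0.11 at 12m, and none passed (adjusted p = 0.99 to 1). The mean of the 5 later differences was 0.45 ± 0.13 (adjusted p = 0.85). The difference at -8 exceeded that mean by 2.42 ± 0.32 (adjusted p = 2.7e-08), a test that 0.0968% of probe sets passed. Of all probe sets 0.0403% passed at 5j, 0.00807% at 3m, 0% at 1m, 9m and 12m, and 0.0161% in the later mean.

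Aldh2 and Aldh3a2 did not pass at -8. Aldh3a2 was at 3920, 3940, 4170, 4560 and 4760 in controls and at 2970, 3030, 3660, 4050 and 4140 in DEN rats, a log2 difference of -0.27 ± 0.14 (adjusted p = 0.43). Aldh2 differed by -0.08 ± 0.14 (adjusted p = 0.85). In the mean of the 5 later times Aldh2 differed by -0.06 ± 0.06 (95% interval -0.18 to 0.07) and Aldh3a2 by -0.07 ± 0.06 (95% interval -0.20 to 0.06), each with an adjusted p of 1.

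The effect of CA was also asked among rats that had DEN. Aldh1a1 was again higher with CA at 5j, 1m and 3m. At 5j the DEN rats were at 567 to 1350 and the DEN-CA rats at 2880, 3870, 4140, 4910 and 5670. At 1m the DEN rats were at 845, 1150, 1230, 1280 and 1370 and the DEN-CA rats at 2730, 3470, 3560, 4250 and 4460. At 3m the DEN rats were at 251, 483, 508, 625 and 698 and the DEN-CA rats at 1800, 1820, 2550, 2950 and 3020. The groups did not overlap at these times, and the DEN-CA rats of 5j held the highest group mean of all 30 groups, 4294 ± 1059 (SD, n = 5).

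The log2 difference of Aldh1a1 between DEN-CA and DEN rats was 2.25 ± 0.29 at 5j (adjusted p = 9.2e-10), 1.63 ± 0.29 at 1m (adjusted p = 9.3e-06) and 2.22 ± 0.29 at 3m (adjusted p = 1.7e-09). It was 0.33 ± 0.29 at 9m (adjusted p = 0.62) and -0.28 ± 0.29 at 12m (adjusted p = 0.69), where the groups overlapped. Of all probe sets 10.5%, 16.2%, 14.3%, 6.99% and 7.04% passed at the 5 times, and groups did not overlap for 6.7%, 7.91% and 10.3% at the first 3. At 1m the difference among arrays without the B suffix, 1 DEN-CA and 2 DEN rats, was 1.45 (adjusted p = 0.16). The mean of the 5 differences was 1.23 ± 0.13 (adjusted p = 2.3e-14, 35.1% passed).

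The CA effect on Aldh1a1 in rats with DEN less that in rats without DEN was -0.24 ± 0.19 in the mean of 5 times (adjusted p = 0.71, 95% interval -0.61 to 0.13), a test that 0.0403% of probe sets passed. Aldh2 and Aldh3a2 gave 0.04 ± 0.09 and 0.12 ± 0.09 in the same test (adjusted p = 0.93 and 0.7). In DEN-CA against DEN rats Aldh2 was at -0.14 ± 0.06 in the mean of 5 times (adjusted p = 0.081) and passed under quantile normalisation (-0.14, adjusted p = 0.0019) or without rat 4056, 4086 or 4091 (adjusted p = 0.043, 0.038 and 0.05). Aldh3a2 was at 0.04 ± 0.06 (adjusted p = 0.68).

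Over time within the DEN arms, Aldh1a1 was higher in DEN rats at 12m, with 2530, 2810, 2870, 2960 and 3510, than in DEN rats of 5j, by 1.74 ± 0.29 (adjusted p = 2.4e-05). The groups did not overlap, as for 3.22% of probe sets, and 1.2% passed. At 9m the difference was 0.80 ± 0.29 (adjusted p = 0.21, 0.541% passed) and passed with array weights (0.87, adjusted p = 0.046) or the B suffix as a covariate (0.92, adjusted p = 0.047). DEN-CA rats went the other way. At 9m their Aldh1a1 signal was 1710, 1770, 1980, 1980 and 2200, below that of 5j by a log2 difference of -1.12 ± 0.29 (adjusted p = 0.011, 4.18% passed), and the groups did not overlap, as for 4.7% of probe sets. At 12m it was -0.80 ± 0.29 (adjusted p = 0.1, 4.72% passed, 5.67% not overlapping), with an adjusted p of 0.013 in a fit of the 2 groups alone.

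Aldh3a2 was lower in DEN-CA rats of 9m, at 2800, 2920, 2950, 3190 and 3470, than in those of 5j, at 3280, 4070, 4850, 4970 and 5910. The log2 difference was -0.56 ± 0.14 (adjusted p = 0.0079). Without rat 4087 of the 5j group the 9m differences no longer passed for Aldh1a1 (-1.01, adjusted p = 0.058) or Aldh3a2 (-0.47, adjusted p = 0.076). Without scaling the 2 values were -0.44 (adjusted p = 0.31) and 0.12 (adjusted p = 0.71), where the median of all probe sets was at 0.52. Neither passed among arrays with the B suffix or without it (adjusted p = 0.13 to 0.37).

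In groups labelled rev no member passed any comparison in the fit of all groups. At 18m the Aldh1a1 signal was 1450, 1950 and 2290 in the 3 rev controls and 1060, 1390, 1830 and 2340 in the 4 rev CA rats. The groups overlapped, at a log2 difference of -0.23 ± 0.36 (adjusted p = 0.91, 0.734% of probe sets passed). Without rats 4040, 4043 and 4111 it was -0.20 (adjusted p = 1). With all rats the difference was -0.36 ± 0.46 from the CA effect at 18m without rev (adjusted p = 0.85, 1.46% passed), or -0.01 without the 3 rats (adjusted p = 1). The rev CA rats were -0.59 ± 0.31 from the CA rats of 18m (adjusted p = 0.2, 14.7% passed), a difference that passed with array weights (-0.71, adjusted p = 0.032) and in a fit of the 2 groups alone (-0.59, adjusted p = 0.049). The rev controls were -0.23 ± 0.34 from the 18m controls (adjusted p = 0.74, 9.79% passed), or -0.58 (adjusted p = 0.4) without rats 4040, 4043 and 4111.

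Among rev groups at 12, Aldh1a1 was at 1420, 1530, 1780, 2420, 2750 and 3300 in DEN rats and at 1070, 1650, 2080, 3110 and 3250 in DEN-CA rats. The 2 groups covered nearly the same range, at a log2 difference of -0.03 ± 0.28 (adjusted p = 1, 0.121% passed), or 0.05 without rat 4111 and the other 2 (adjusted p = 1). With all rats the difference was 0.26 ± 0.41 from the difference at 12m without rev (adjusted p = 0.86, 2.3% passed), or 0.34 without those rats (adjusted p = 0.81). DEN-CA rats with rev were -0.22 ± 0.29 from those without rev (adjusted p = 0.69, 12.8% passed), or -0.14 when rat 4111 was left out (adjusted p = 0.83). The 4 rev controls of 12m, at 1790, 2150, 2350 and 2540, were -0.31 ± 0.31 from the 12m controls (adjusted p = 0.89, 0.121% passed).

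Aldh3a2 was at 1550, 2780 and 3070 in the rev controls of 18m and at 3040, 3070, 3400 and 3800 in the rev CA rats, a difference of 0.48 ± 0.17 (adjusted p = 0.22). The low control is rat 4043, which had the highest lymphocyte marker sum. Without rats 4040, 4043 and 4111 the Aldh3a2 difference was 0.18 (adjusted p = 1), and without rat 4046 it was 0.67 and passed (adjusted p = 0.046). Aldh2 was at 3510 in rat 4043 and at 5350 and 6270 in the other rev controls, against 5160 to 6050 in the rev CA rats (0.19 ± 0.17, adjusted p = 0.81, and -0.05 without those 3 rats). The Aldh3a2 rev controls were -0.38 ± 0.17 from the 18m controls (adjusted p = 0.13), and passed under quantile normalisation (-0.45, adjusted p = 0.0058) and without rat 4046 (-0.57, adjusted p = 0.048). Without rats 4040, 4043 and 4111 the value was -0.14 (adjusted p = 0.72).

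**Figure D3:**
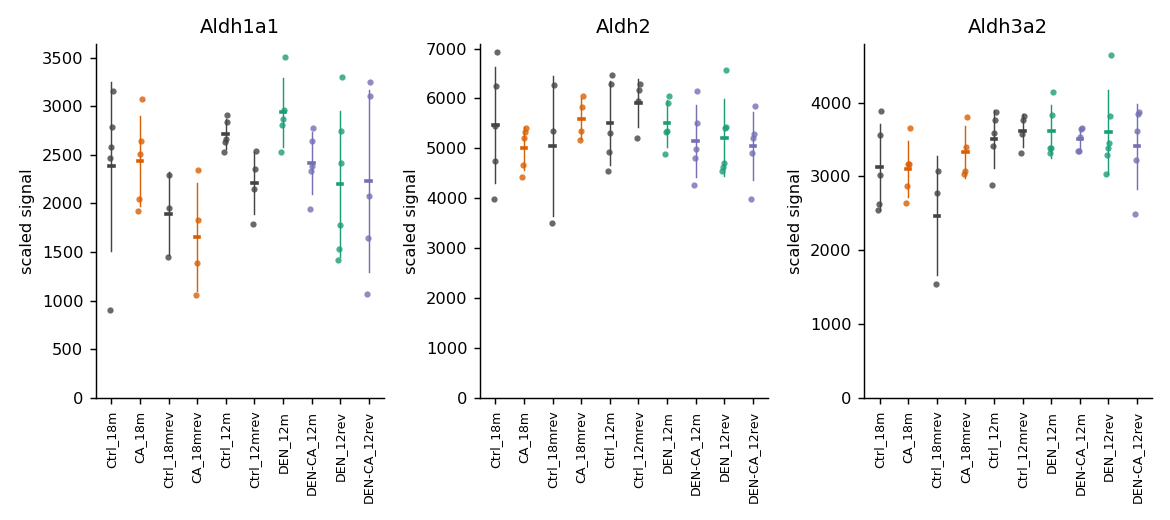
Scaled signal of the 3 genes (vertical axis, from 0) in the groups of 12m and 18m with and without the label rev (horizontal axis, group names as arm and time); points are untagged sections of single rats, thick bars are means and thin lines 1 SD. The lowest Aldh1a1 value is 907 in 1 control of 18m, and the lowest Aldh3a2 value is 1550 in 1 rev control.

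TU sections were compared with the untagged section of the same rat in 9 CA and 7 DEN-CA rats. In DEN-CA rats all 3 genes were lower in TU sections. Aldh3a2 fell in 7 of 7 DEN-CA rats, Aldh2 in 7 of 7 and Aldh1a1 in 6 of 7. In CA rats Aldh2 and Aldh3a2 were lower in 8 of 9 rats and Aldh1a1 in 5 of 9, and none passed the test.

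In DEN-CA rats the untagged sections gave Aldh3a2 signals of 2490 to 3650 and the TU sections of 1150 to 2820. The largest drop was in rat 4107, from 3650 to 1150. The mean log2 difference was -0.71 ± 0.17 (adjusted p = 0.0048). For Aldh2 the untagged range was 3990 to 6150 and the TU range 2210 to 5110, a difference of -0.58 ± 0.12 (adjusted p = 0.0021). Rat 4104 went from 4710 to 2400 and rat 4105 from 5350 to 4850. For Aldh1a1 the ranges were 1650 to 2640 and 938 to 2400, a difference of -0.52 ± 0.15 (adjusted p = 0.012). Rat 4109 was the exception, with 1940 in the untagged section and 2230 in the TU section. Of 11566 probe sets tested, 29.6% passed in DEN-CA rats.

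In CA rats the Aldh3a2 signal was 2200 to 3650 in untagged and 781 to 3440 in TU sections (-0.48 ± 0.15, adjusted p = 0.078). Aldh2 was at 4330 to 6070 and 3130 to 5610 (-0.37 ± 0.11, adjusted p = 0.064). Aldh1a1 was at 1060 to 3070 and 1030 to 2690 (-0.01 ± 0.13, adjusted p = 0.96, 95% interval -0.29 to 0.27). In this arm 3.74% of probe sets passed. Rat 4137 alone was higher in its TU section for both Aldh2 (4330 to 5220) and Aldh3a2 (2200 to 3440). Its untagged section had the lowest pericentral marker sum of the 148, 8040, and the highest cholangiocyte sum, 859. In its TU section these sums were 16500 and 561, and the endothelial sum was 929 in the untagged and 2100 in the TU section. Without that rat both genes passed, Aldh2 at -0.45 (adjusted p = 0.0034) and Aldh3a2 at -0.62 (adjusted p = 0.0019). The TU difference of DEN-CA rats less that of CA rats did not pass for Aldh1a1 (-0.51 ± 0.20, adjusted p = 0.25), Aldh2 (-0.21 ± 0.17, adjusted p = 0.57) or Aldh3a2 (-0.23 ± 0.23, adjusted p = 0.67), and 0% of probe sets passed.

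**Figure D4:**
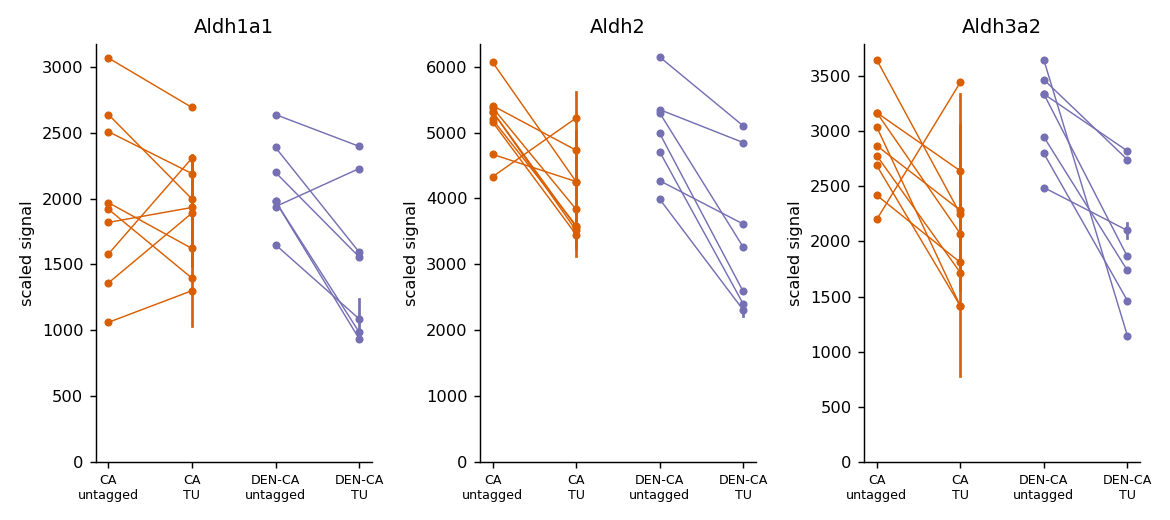
Scaled signal of the 3 genes (vertical axis, from 0) in the untagged and TU sections of the same rat, joined by a line, for 9 CA and 7 DEN-CA rats (horizontal axis); a TU point is the rat's mean on the log2 scale and a thick line reaches from its lowest to its highest TU section. All 7 DEN-CA lines of Aldh2 and of Aldh3a2 fall.

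The DEN-CA difference of Aldh1a1 did not pass without scaling (-0.58, adjusted p = 0.11), under quantile normalisation (-0.36, adjusted p = 0.072), without rat 4104 (-0.43, adjusted p = 0.052) or with no replicate block, that is unpaired (-0.52, adjusted p = 0.068). Marker sums of other cells and of liver zones moved between these sections. Of all 11566 probe sets tested, 29.6% passed in DEN-CA rats, 1338 higher and 2080 lower. In DEN-CA rats the sum of 8 pericentral markers was 14000 to 28200 in untagged and 5110 to 16200 in TU sections, and 7 of 8 were lower. The sum of 5 endothelial markers was 1230 to 1910 and 334 to 919, without overlap, and 3 of 5 were lower. The Kupffer sum had medians of 4550 and 2620, with 4 of 6 lower, and the periportal sum of 24800 and 22500, with 4 of 8 lower. The cholangiocyte sum had medians of 570 and 742, the stellate cell and fibroblast sum of 1590 and 1780, and the sum of 9 hepatocyte markers of 83600 and 89000. In CA rats the medians in untagged and TU sections were 17200 and 10300 for pericentral, 1430 and 952 for endothelial, 4680 and 3360 for Kupffer, 31300 and 25600 for periportal, 601 and 767 for cholangiocyte, 1550 and 1630 for stellate cell and fibroblast, and 104000 and 85200 for hepatocyte markers. The part of these markers in the result was not tested. Without rat 4111 the difference in DEN-CA rats was -0.79 for Aldh3a2 (adjusted p = 0.0049), -0.54 for Aldh2 (adjusted p = 0.007) and -0.51 for Aldh1a1 (adjusted p = 0.027). The differences between arms were then -0.31, -0.17 and -0.49, and none passed (adjusted p = 0.57, 0.68 and 0.29).

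PERI sections were available for 5 of these rats and were not tested. Their Aldh3a2 signals were 3460, 2930, 3360, 3180 and 2960 in rats 4137, 4142, 4143, 4109 and 4104, against untagged values of 2200, 2870, 3650, 3340 and 2800. In the same order Aldh1a1 was at 2810, 2000, 2830, 2520 and 1550 in PERI sections and at 1580, 1920, 2510, 1940 and 1980 in untagged ones. Aldh2 was at 5850, 4340, 4650, 4760 and 4220 in PERI sections, in the same order of rats. Its untagged values were 4330, 5410, 4670, 6150 and 4710. The PERI value of Aldh2 was below all TU values in rats 4142 and 4109. It lay between the TU values in rat 4143 and above them in rats 4137 and 4104. The 4 rats other than 4137 had Aldh3a2 signals in PERI sections close to their untagged values and above all their TU values, apart from a TU section of rat 4142 at 3340.

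Of 18 other aldehyde dehydrogenase genes listed, 10 were on the array and 9 were tested. In the mean CA effect 1 was higher, 1 was lower and 7 did not pass, where 40.2% of all probe sets passed. Aldh5a1, the succinate semialdehyde dehydrogenase of the GABA shunt, was higher by 0.66 ± 0.05 (adjusted p = 2.8e-21). Its scaled signal at 5j was 188 ± 26.4 in controls and 375 ± 34.6 in CA rats (SD, n = 5), and at 18m 183 ± 51 and 273 ± 25. Aldh1l1, the 10-formyltetrahydrofolate dehydrogenase of folate metabolism, was lower, at -0.58 ± 0.06 (adjusted p = 1.2e-14), from 2610 ± 480 to 1760 ± 364 at 5j. DEN-CA against DEN rats gave 0.63 ± 0.06 for Aldh5a1 (adjusted p = 1.5e-17) and -0.43 ± 0.07 for Aldh1l1 (adjusted p = 6.3e-08). In DEN rats against controls at -8 and in controls of 18m against 5j none of the 9 passed. Aldh3a1, the untested gene, was at 26.2 ± 6.06 in controls and 30.9 ± 24.8 in CA rats at 5j.

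In TU sections of DEN-CA rats 2 of these 9 genes were higher and 3 lower, beside 29.6% of all probe sets. Aldh18a1, which makes the proline precursor pyrroline-5-carboxylate, was higher by 0.98 ± 0.20 (adjusted p = 0.0014) and Aldh16a1 by 0.33 ± 0.12 (adjusted p = 0.042). Aldh1l1 was lower, at -0.64 ± 0.16 (adjusted p = 0.0045), Aldh4a1 of proline breakdown by -0.64 ± 0.14 (adjusted p = 0.0027) and Aldh6a1 of valine breakdown by -0.40 ± 0.11 (adjusted p = 0.0087). In CA rats none of the 9 passed.

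**Figure D5:**
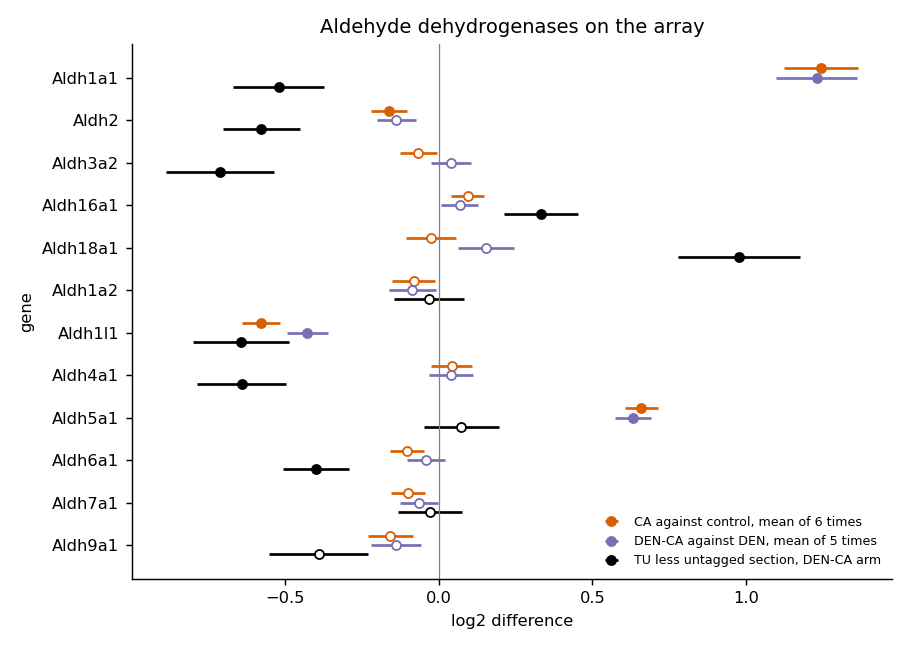
Log2 differences (horizontal axis, bars are 1 SE) of the 3 members and 9 other aldehyde dehydrogenase genes (vertical axis) in the mean CA effect over 6 times, the mean of DEN-CA against DEN over 5 times, and TU less untagged sections of DEN-CA rats; filled points have an adjusted p under 0.05. Aldh1a1 and Aldh5a1 lie to the right in both CA comparisons, at 1.24 and 0.66 in the first.

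Genes that handle the substrates and products of these enzymes were read from 5 lists chosen by pathway. Their counts stand beside the 40.2% of all probe sets that passed in the mean CA effect and the 7.22% that passed in controls of 18m against 5j. Of 20 retinoid handling genes tested, 3 were higher and 6 lower in the mean CA effect, with a median of -0.03 against -0.02 over all probe sets. Retsat, which saturates retinol, was higher by 1.09 ± 0.07 (adjusted p = 2.8e-31). Rdh10, which makes retinaldehyde from retinol, was lower, at -0.64 ± 0.06 (adjusted p = 1.2e-16), and the retinal reductase Dhrs4 was higher by 0.40 ± 0.07 (adjusted p = 3.9e-07). That is 45% of the list, near the 40.2% of all probe sets. In controls of 18m against 5j, 2 were higher and 3 lower, beside 7.22% of all probe sets. Rdh16, a microsomal retinol dehydrogenase, was lower, at -1.85 ± 0.46 (adjusted p = 0.0045) and Rbp4, the plasma retinol carrier, by -0.64 ± 0.17 (adjusted p = 0.008), while the retinoid X receptor Rxra was higher by 0.70 ± 0.20 (adjusted p = 0.017).

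Of 7 ethanol and acetaldehyde genes, 3 (42.9%) were higher and none lower in the mean CA effect, near the share of all probe sets, and none passed with time in controls. Alcohol dehydrogenase Adh4 was higher by 0.63 ± 0.08 (adjusted p = 3.1e-10), Adh5, which clears formaldehyde bound to glutathione, by 0.22 ± 0.06 (adjusted p = 0.001) and catalase, Cat, by 0.16 ± 0.06 (adjusted p = 0.044). Of 15 other aldehyde-clearing enzymes, 6 were higher and 7 lower, 86.7% against 40.2%. Xanthine dehydrogenase, Xdh, was lower, at -1.11 ± 0.05 (adjusted p = 4.4e-41). The alkenal reductase Ptgr1 was higher by 0.82 ± 0.09 (adjusted p = 9.1e-15) and the aldehyde reductase Akr1a1 by 0.37 ± 0.05 (adjusted p = 4.3e-11). With time in controls the aldose reductase relative Akr1b7 was higher by 2.25 ± 0.68 (adjusted p = 0.026) and Akr7a2 lower, at -0.46 ± 0.15 (adjusted p = 0.035).

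Of 10 genes of fatty aldehyde supply and fatty acid omega- and alpha-oxidation, 4 were higher and 3 lower in the mean CA effect, 70% against 40.2%. Beside Cyp4a1, Cyp4f5 was higher by 0.49 ± 0.10 (adjusted p = 8.7e-06), and Cyp4a8 was lower, at -2.37 ± 0.09 (adjusted p = 7.2e-52). In controls of 18m Cyp4a8 was higher than at 5j by 2.10 ± 0.21 (adjusted p = 9.7e-14), and Phyh, the phytanoyl-CoA hydroxylase of alpha-oxidation, was lower, at -0.69 ± 0.15 (adjusted p = 0.00083).

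Of 14 listed target genes of the xenobiotic receptors CAR and PXR, 4 were higher and 3 lower in the mean CA effect, 50% against 40.2%. Cyp3a9 was lower, at -2.14 ± 0.15 (adjusted p = 3e-25) and Ugt2b1 by -1.04 ± 0.13 (adjusted p = 2.8e-11). Ephx1, the microsomal epoxide hydrolase, was higher by 0.36 ± 0.06 (adjusted p = 1.3e-07), with 0.92 ± 0.14 at 5j and -0.13 at 18m (adjusted p = 0.73). Among these 5 lists and the other aldehyde dehydrogenases it was the only gene that passed in DEN rats at -8, by 0.99 ± 0.14 (adjusted p = 3.9e-07). In controls of 18m against 5j 2 of the 14 were higher and 5 lower, 50% against 7.22%. Ephx1 was higher by 0.58 ± 0.14 (adjusted p = 0.0049), while Cyp2b3 was lower, at -0.69 ± 0.15 (adjusted p = 8e-04) and Alas1, the first enzyme of haem synthesis, by -1.5 ± 0.35 (adjusted p = 0.0022).

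Genes whose 30 untagged group means followed each member most closely were listed by Pearson's r, as a description over groups that share their arrays. For Aldh1a1 these were Adh4 (r = 0.83), the fatty acid translocase Cd36 (0.823), Ephx1 (0.77), Bmp7 (0.759) and Pdcd4 (0.723). For Aldh2 they were Dmgdh (0.816), Qdpr (0.804), Rida (0.799), Rdh7 (0.788) and Lipc (0.787). For Aldh3a2 they were the peroxisomal protease Lonp2 (0.878), Aco1 (0.844), Vcp (0.825), Vps26a (0.818) and Hsd17b12 (0.792). Among the members themselves r was -0.612 for Aldh1a1 with Aldh2, -0.152 for Aldh1a1 with Aldh3a2 and 0.335 for Aldh2 with Aldh3a2. Whether the Aldh1a1 probe set also reads its close paralog Aldh1a7, a phenobarbital-inducible gene, was not tested.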

How the data were processed

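Liver RNA was read on Affymetrix arrays, 1 per section. The deposited values are linear-scale signal intensities that the authors computed with MAS5, per the submitters' processing notes; its version is not given in the sources used here. Probe sets were named through the platform's annotation: 12783 have 1 gene, 312 several and 2827 none.

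Here each array was scaled to the median of the array medians (99.35), since deposited medians ran from 25.35 to 187.2, 25 was added and log2 taken. Such an offset understates changes of low signals. Probe sets above the 40th percentile on at least 3 arrays were kept. Group means of 148 untagged sections were fitted with limma 3.58.1 in R 4.3.3 (118 residual degrees of freedom), and TU sections, averaged per rat, were compared with the untagged section of the same rat in 16 rats (14 degrees of freedom). Adjusted p-values are limma's, with empirical Bayes moderation and Benjamini-Hochberg adjustment over all probe sets tested, at a threshold of 0.05. The number of arrays limits the precision, and no array was a copy of another. The script was tested on simulated data.

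Alternatives were offsets of 6 and 99, no scaling, quantile normalisation, other filters, array weights, the B suffix, other sets of groups, other pairings and leaving out each rat. Members, gene lists and comparisons were chosen with earlier results of these data known. Genes named are the members, listed aldehyde dehydrogenases that passed, the 3 genes of smallest adjusted p per pathway list in the mean CA effect and in controls of 18m against 5j, and the 5 genes of highest r with each member. Cyp4a1 and Cyp4a8 fall under this rule. Ephx1 at -8, at 5j and at 18m, and the values of Aldh3a1, were named after their values were seen.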

Additional observations from a re-analysis of the deposited data

Results flagged for a closer look

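The CA effect on Aldh1a1 differed between times. It was lower than at 5j by log2 differences of -2.1 at 9m, -3.39 at 12m and -2.72 at 18m, each past the adjusted threshold in limma's test of the difference. The DEN effect on Aldh1a1 at -8 exceeded the mean of the later times by 2.42 in the same kind of test. Of 30 such differences between effects that were tested over the 3 genes, these 4 passed.

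Single rats stood apart from the others of their group by Dixon's criterion in 5 of 87 combinations of gene and group, where chance gives about 1 in 20. Aldh1a1 was at 907 in rat 4040 of the 18m controls, against 2470 to 3160 in the others, and that rat's section also had a high lymphocyte marker sum. The other flagged values were of Aldh2. Rat 4137 of the CA rats of 12m was at 4330, against 5320 to 5720. Among untagged sections that rat's had the lowest pericentral marker sum, 8040, and the highest cholangiocyte sum, 859. Rat 4118 of the CA rats of 5j was at 3440, against 5550 to 6690. Rat 4010 of the 5j controls was at 8500, against 5650 to 6360, and rat 4059 of the DEN rats of 1m was at 4290, against 5310 to 5610.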

How the results depend on the processing

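The 9m, 12m and 18m control differences and the 5j, 1m and 3m CA effects of Aldh1a1 kept their direction in every setting that could be run. Beside leaving out single rats, 721 values per gene were recomputed. Of these, 698 of Aldh1a1, 704 of Aldh2 and 701 of Aldh3a2 stayed on their side of the threshold, with no change of sign where a value passed. Among them 26, 62 and 54 changed sign with neither value past the threshold, so their direction was not kept. Leaving out single rats gave 891 values per gene, of which 889, 887 and 877 stayed so, and among these 24, 46 and 32 changed sign with neither value past. The TU difference of Aldh1a1 in DEN-CA rats did not pass without scaling (-0.581), under quantile normalisation (-0.363) or with no replicate block (-0.52), and ran from -0.64 to -0.431 without single rats. The CA mean of Aldh2 did not pass without B arrays (-0.191) or with deposited medians of 50 or more (-0.141). These passed under the setting named: the DEN-CA mean of Aldh2 under quantile normalisation (-0.136) and medians of 50 or more (-0.16; without single rats -0.16 to -0.112); the TU difference of Aldh2 in CA rats with the 70th percentile filter (-0.37), array weights (-0.416) and every TU section with the rat as a replicate block (-0.362; -0.45 to -0.342); the CA mean of Aldh3a2 without scaling (-0.288) and under quantile normalisation (-0.109); the rev CA difference of Aldh3a2 under quantile normalisation (0.503; 0.181 to 0.672); and the TU difference of Aldh3a2 in CA rats with array weights (-0.586) and the rat as a block (-0.497; -0.624 to -0.408). Without single rats the Aldh3a2 difference of 18m from 5j controls ran from -0.475 to -0.323. Signs turned for Aldh2 in CA rats labelled 18 under quantile normalisation (-0.252) and, without scaling, for Aldh2 in CA rats of 9m (0.829) and 18m (0.66) and for Aldh3a2 in CA rats of 9m (0.692) and 18m (0.37) and DEN-CA rats of 9m (0.115) against 5j. There the median of all probe sets was itself 0.797, 0.659 and 0.524. The cause of the other changes was not tested.

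Counts of probe sets past the threshold moved by over 1.5 times in 199 of 721 pairs of comparison and setting. The mean CA effect had 4976 (3642 to 5310 over the settings), CA at 5j 1390 (262 to 1814), DEN at -8 38 (5 to 150), controls of 18m against 5j 895 (268 to 1871), TU in CA rats 432 (1 to 2813) and TU in DEN-CA rats 3418 (1450 to 4142). With the rat as a random replicate block over all sections the within-rat correlation was -0.0272, and 0.132 in the TU fit. Rats carry their own numbers, so no pairing across groups was possible. No member had another probe set, so that alternative gave no value. The settings with medians of 50 or more and without 3 rats were chosen after seeing the data.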

Other observations

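Pathway lists also moved in TU sections of DEN-CA rats, beside 29.6% of all probe sets that passed there. Of 20 retinoid handling genes 1 was higher and 9 lower, of 7 ethanol and acetaldehyde genes none was higher and 3 lower, and of 15 other aldehyde-clearing enzymes 1 was higher and 7 lower. Of 10 genes of fatty aldehyde supply and omega- and alpha-oxidation 1 was higher and 6 lower, and of 14 CAR and PXR targets none was higher and 10 lower. In the mean CA effect the list of other aldehyde dehydrogenases had a median log2 difference of -0.08 against -0.02 over all probe sets, and in TU sections of DEN-CA rats -0.03 against -0.03.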
